A study of Mus musculus with 18 samples.

Results

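Nuclear RNA of 4 genes known from the nervous system, Chrna4, Grid1, Ntrk2 and Dscaml1, was followed through fasting in mouse liver nuclei. The 4 genes were taken by symbol from the 20105 genes of the raw count table, and they had been chosen by lower counts in fasted than in fed libraries of these data. Their fasting values are therefore given as a description with no test. The groups were, in order, fresh IP fasted, fresh IP fed, frozen IP fasted, frozen IP fed, supernatant fasted and supernatant fed. Every group held 3 libraries, from separate mice. IP stands for immunoprecipitation of tagged hepatocyte nuclei from female HEP-INTACT mice, the supernatant for the liver nuclei that were not pulled down, and fresh or frozen for the state of the liver from which nuclei were made. All supernatants analysed were from fresh liver. Fasted mice had no food for 16 h from zeitgeber time 12, the onset of the dark phase, and fed mice ate ad libitum and were killed at the same time. There were 3 fasted and 3 fed mice, each giving 3 libraries, and all carried the tag. The promoter that drives the tag is not given in the sources used here.

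Chrna4 encodes the α4 subunit of nicotinic acetylcholine receptors, which in brain pairs mainly with the β2 subunit to form an ion channel opened by acetylcholine. Grid1 encodes GluD1, a member of the ionotropic glutamate receptor family that acts at synapses as an adhesion receptor, bound by cerebellins that also bind presynaptic neurexins. Ntrk2 encodes TrkB, the receptor tyrosine kinase for the neurotrophin BDNF, which also exists in truncated forms without the kinase domain. Dscaml1 encodes a homophilic adhesion molecule of the immunoglobulin superfamily that acts in the spacing of retinal neurons. In bulk nuclei, fewer cells of a type and less RNA per cell cannot be told apart.

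On mm10 (1-based), Chrna4 (NM_015730) was counted over chr2:181022311-181039177 on the minus strand, a span of 16.9 kb of which exons make up 26.4%. Grid1 (NM_008166) was counted over chr14:34820136-35581115 on the plus strand, 761 kb with 0.482% in exons. Ntrk2 (NM_001282961) lay at chr13:58806569-59133970 on the plus strand, 327 kb with 5.89% in exons. Dscaml1 (NM_001081270) lay at chr9:45430293-45753713 on the plus strand, 323 kb with 2.64% in exons. The counted feature was the whole span, introns included, so full-length and truncated TrkB transcripts were summed, and unspliced RNA is part of every value. In GENCODE, antisense genes overlap Ntrk2, the longest by 29198 bases (4930415C11Rik), and Dscaml1 by 1438 bases (4833428L15Rik). How strand was treated in counting is not stated in the labels, so reads of these partners cannot be told apart from those of Ntrk2 and Dscaml1.

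The promoters of 2 of the 4 genes were found in RefSeq sequence tables for GRCm38.p6, and they are shown for that reason. Grid1 and Dscaml1 had no matched entry there. Each line gives the 250 bases before the counted start, 5′ to 3′ on the gene's strand, for Chrna4 at chr2:181039178-181039427 (minus) and for Ntrk2 at chr13:58806319-58806568 (plus). The RefSeq gene of Chrna4 reaches to 181043579, so its whole window lies inside the annotated gene. That of Ntrk2 starts at 58806472, so the last part of its window lies inside the annotated gene. The windows are thus upstream of the counted start only. Capitals mark a GC box (GGGCGG or its complement CCGCCC).
Chrna4: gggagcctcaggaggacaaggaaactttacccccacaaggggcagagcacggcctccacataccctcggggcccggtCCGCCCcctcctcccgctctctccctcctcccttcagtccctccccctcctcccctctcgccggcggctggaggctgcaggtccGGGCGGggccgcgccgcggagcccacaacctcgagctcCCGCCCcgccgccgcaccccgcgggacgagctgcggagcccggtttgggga
Ntrk2: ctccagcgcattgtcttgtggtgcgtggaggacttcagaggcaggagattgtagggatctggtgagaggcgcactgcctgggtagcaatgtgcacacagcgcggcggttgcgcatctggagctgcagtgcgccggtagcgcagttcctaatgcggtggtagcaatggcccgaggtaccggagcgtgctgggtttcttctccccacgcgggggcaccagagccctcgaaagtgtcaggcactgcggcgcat
The Chrna4 window held 3 GC boxes, at positions -173 to -168, -89 to -84 and -51 to -46 from the start, and its GC content was 74.4%. The Ntrk2 window held 0 of them at a GC content of 62.8%, against a median of 52.4% over 32851 RefSeq promoters. CpG dinucleotides numbered 24 in the Chrna4 window and 19 in the Ntrk2 window. A GC box occurred in 32.7% of all promoters. The other motifs searched, on both strands, were the E-box CACGTG (in 6.02% of promoters), the D-box TTATGTAA (0.819%), the forkhead site GTAAACA (3.17%), the cAMP response element TGACGTCA (1.55%), the nuclear receptor half-site AGGTCA (14.0%), the CCAAT box CCAAT (33.8%) and the TATA box TATAAA (12.4%). None of these letters stood in either window.

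Total counts ran from 13828945 to 54434263 per library. The summed level of 14 hepatocyte markers, in CPM (counts scaled to a common library size after TMM normalization), was 22078 to 30868 in fresh IP fasted and 14564 to 22983 in fresh IP fed libraries. In supernatants it was 966 to 1588 (fasted) and 563 to 996 (fed), so supernatants still held some hepatocyte RNA. Of 10 neuron markers, 8 averaged under 0.1 CPM in each IP group, Nefl was at 0 in all libraries, and nearly all of the list's IP signal came from Syt1 (fresh IP means of 73.2 CPM fasted and 143 CPM fed). The Schwann cell markers Sox10 and S100b were at 0 in fresh IP libraries. Column letters A, B and C name the libraries of a group, and in this text libraries are listed in that order.

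Chrna4, the receptor subunit, was near the limit of detection in fasted hepatocyte nuclei. In fresh IP it had 0.0275, 0.330 and 0 CPM in fasted libraries, against 77.4, 155 and 27.3 CPM in fed libraries. The fasted values rested on 1, 17 and 0 reads, and a count of 0 in library C allows a level of up to 0.0987 CPM (3 counts). The groups did not overlap, and library B held nearly all fasted reads. Frozen IP libraries had 0.150, 0.273 and 0.231 CPM when fasted, against 71.8, 62.3 and 22.7 CPM when fed, again with no overlap. The fasted mean was 726-fold below the fed mean for fresh liver and 240-fold below it for frozen liver. As log2 fold changes from edgeR, fasted over fed, these were -9.14 (SE 1.13) and -7.88 (SE 0.56), the lowest of 12548 and of 12926 genes tested. Without fresh IP fasted library B the first became -12.17. The authors' deposited table gives -9.47 in fresh and -7.98 in frozen IP, the lowest of 17402 genes in each. In supernatants Chrna4 was low and the groups overlapped, with 0.988, 0.0735 and 0.295 CPM in fasted and 1.81, 2.68 and 0.570 CPM in fed libraries (log2 fold change -1.86, SE 1.09). That difference was -3.18 without fasted library A and -1.37 without fasted library B. Among fed libraries the highest exceeded the lowest 5.66-fold in fresh IP, 3.17-fold in frozen IP and 4.71-fold in supernatant, and letter C was the lowest in all 3.

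Grid1, the δ-family receptor, differed between feeding states in opposite directions in hepatocyte nuclei and in the nuclei left behind. In fresh IP it had 42.8, 57.3 and 55.8 CPM in fasted libraries, against 266, 323 and 287 CPM in fed libraries. In frozen IP it had 43.3, 52.4 and 50.1 CPM in fasted libraries, against 269, 371 and 288 CPM in fed libraries. Every fasted IP library was far below every fed one, and the fasted mean was 5.62-fold below the fed mean in fresh IP and 6.36-fold below it in frozen IP. In supernatants the order was turned round, with 56.1, 62.1 and 63.5 CPM in fasted and 43.2, 30.2 and 37.9 CPM in fed libraries, a fasted mean 1.63 times the fed one. Those groups did not overlap either. In the same supernatants the summed hepatocyte markers averaged 1279 CPM in fasted and 732 CPM in fed libraries, and the summed endothelial markers 3293 CPM in fasted and 2584 CPM in fed libraries. Their part in the Grid1 difference was not tested. The log2 fold changes were -2.47 (SE 0.16) in fresh IP, -2.67 (SE 0.16) in frozen IP and 0.72 (SE 0.16) in supernatant. In the authors' deposited table they are -2.54 in fresh and -2.74 in frozen IP. The name given to the gene set, repression by fasting, thus holds for Grid1 in IP and not in supernatants.

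Ntrk2, the BDNF receptor, was lower in fasted libraries of all 3 preparations with no overlap of groups. In fresh IP it had 9.51, 9.51 and 10.1 CPM in fasted libraries, against 112, 201 and 142 CPM in fed libraries. In frozen IP it had 10.4, 8.03 and 8.45 CPM in fasted libraries, against 113, 202 and 150 CPM in fed libraries. Fasted levels were tightly grouped, and letter B was the highest of the fed libraries in each preparation. In supernatants it had 1.12, 0.760 and 1.33 CPM in fasted and 3.28, 4.64 and 3.0 CPM in fed libraries. The fasted mean was 15.7-fold below the fed mean in fresh IP, 17.3-fold in frozen IP and 3.41-fold in supernatant. The log2 fold changes were -3.95 (SE 0.25), -4.11 (SE 0.27) and -1.76 (SE 0.29), and the authors' deposited table has -4.02 in fresh and -4.19 in frozen IP.

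Dscaml1, the adhesion molecule, was found mainly in the supernatant and was lower there in fasting. Supernatants had 27.7, 52.3 and 45.7 CPM when fasted, against 202, 270 and 236 CPM when fed, with no overlap and a fasted mean 5.64-fold below the fed one. The log2 fold change of -2.49 (SE 0.30) was the 10th lowest of 13921 genes. In fresh IP the gene did not pass the filter on low counts, with 0.137, 0.0970 and 0.164 CPM in fasted and 0.107, 0.0880 and 0.427 CPM in fed libraries. Those values rested on 5 reads in each fasted library and on 5, 2 and 17 in fed libraries, and the groups overlapped, so a fall in fresh hepatocyte nuclei was not detectable at this depth. Frozen IP had 0.275, 0.446 and 0.693 CPM when fasted, against 1.20, 2.84 and 1.19 CPM when fed, a log2 fold change of -1.80 (SE 0.53) without overlap. The authors' deposited table lists -0.80 in fresh and -1.90 in frozen IP. Beside the supernatant difference, the summed CPM of 10 Kupffer cell and macrophage markers was 3188 to 4369 in fasted and 4509 to 5906 in fed supernatants. Those of 10 lymphocyte markers were 795 to 931 in fasted and 917 to 1421 in fed supernatants. Those of 10 endothelial markers were 2893 to 3760 in fasted and 2343 to 3000 in fed supernatants. Their part in the Dscaml1 difference was not tested.

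**Figure D1:**
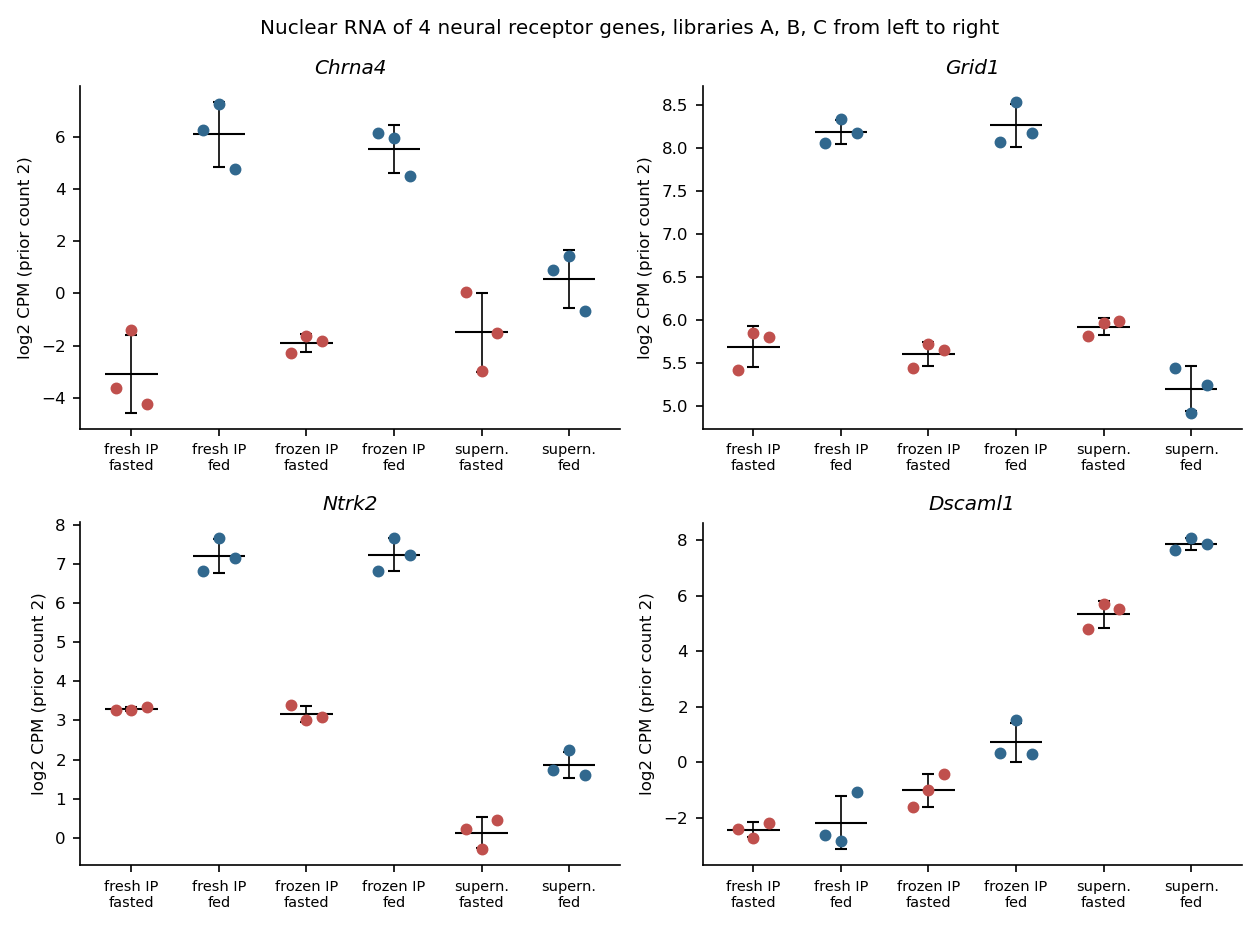
Level of the 4 genes in every library, as log2 CPM (prior count 2) on the y axis with 6 groups on the x axis; points are libraries, horizontal lines group means and error bars 1 SD (n = 3). Fasted groups (red) of Chrna4, Grid1 and Ntrk2 lie below fed groups (blue) in both IP preparations, Grid1 is the other way round in supernatant, and Dscaml1 is high only in supernatant.

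In fresh IP, fasted and fed libraries did not overlap for 3 of the 4 genes, all lower in fasting, while the groups of 22.2% of the 12548 genes tested did not overlap in that direction (22.6% in the other) and 12.6% were called lower. In frozen IP they did not overlap for 4 of 4, against 21.4% of 12926 genes in that direction (23.6% in the other), and 11.6% called lower. In supernatant they did not overlap for 2 lower genes and 1 higher gene, against 14.9% of 13921 genes lower and 14.2% higher without overlap, and with 2.84% called lower and 3.38% called higher. The choice of genes used these contrasts, so nothing is read from the counts. Of 14 hepatocyte markers 12 had a higher and 2 a lower mean in fasted than in fed fresh IP libraries, and the ranges of their sums overlapped. The lower ones were Cyp2e1 (802 CPM in fasted and 1569 CPM in fed libraries) and Cyp2f2 (78.7 CPM in fasted and 169 CPM in fed libraries). The neuron list, almost all Syt1, summed to 68.2 to 78.1 CPM in fasted and 122 to 182 CPM in fed fresh IP libraries, so it differed in the same direction as those 3 genes. The part of either list in the result was not tested. Per kb of span, the fresh IP fed levels were 5.13 CPM for Chrna4, 0.464 for Ntrk2, 0.384 for Grid1 and 0.000641 for Dscaml1. In that order the neighbours Ntrk2 (SD 0.139) and Grid1 (SD 0.0375) did not differ beyond their spread. In fresh IP fasted libraries the order became Grid1 at 0.0683, Ntrk2 at 0.0296, Chrna4 at 0.00706 and Dscaml1 at 0.000411 CPM per kb, and Chrna4 (SD 0.0108) did not differ from Dscaml1 beyond its spread. In supernatants Dscaml1 led with 0.130 CPM per kb in fasted and 0.731 in fed libraries.

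The choice of genes did not compare tagged hepatocyte nuclei with the remaining nuclei, and that difference was tested within each feeding state. The fasted and fed levels that enter these tests were, however, those used to choose the genes. High fed and low fasted levels can therefore follow in part from the choice, and the p-values are not independent of it. P-values were adjusted over all genes by Benjamini-Hochberg after edgeR's quasi-likelihood test. In fed mice, IP was called higher for 37.7% and lower for 38.7% of 13881 genes, and Chrna4, Ntrk2 and Grid1 were each called higher. Chrna4 averaged 86.5 ± 64.2 CPM in fed IP and 1.69 ± 1.06 CPM in fed supernatant (SD, n = 3 each), a log2 difference of 5.64 (SE 0.97, edgeR adjusted p = 0.000157). Ntrk2 averaged 152 ± 45.5 CPM in fed IP and 3.64 ± 0.881 CPM in fed supernatant, a log2 difference of 5.37 (SE 0.31, edgeR adjusted p = 6.35e-07). Grid1 averaged 292 ± 28.5 CPM in fed IP and 37.1 ± 6.55 CPM in fed supernatant, a log2 difference of 2.96 (SE 0.17, edgeR adjusted p = 8.39e-07). Dscaml1 was the reverse, at 0.207 ± 0.190 CPM in fed IP and 236 ± 34.1 CPM in fed supernatant, a log2 difference of -10.06 (SE 0.57). It passed the filter on low counts only through the supernatant, where it is high, so its difference is described without a test. IP and supernatant libraries did not overlap for Chrna4, Ntrk2 or Grid1, all higher in IP, nor for 40.4% of all genes higher and 40.5% lower in IP. The calls of those 3 genes held under the 12 alternatives tried.

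In fasted mice, where 40.2% of 14000 genes were called higher and 40.4% lower in IP, Ntrk2 was called and Grid1 and Chrna4 were not. The libraries did not overlap for Ntrk2, higher in IP, nor for 44.2% of all genes higher and 40.9% lower in IP. Ntrk2 averaged 9.71 ± 0.339 CPM in fasted IP and 1.07 ± 0.286 CPM in fasted supernatant (SD, n = 3 each), so it was still higher in hepatocyte nuclei (log2 difference 3.12, SE 0.23, edgeR adjusted p = 6.38e-06). Dscaml1 averaged 0.133 ± 0.0340 CPM in fasted IP and 41.9 ± 12.7 CPM in fasted supernatant (log2 difference -8.38, SE 0.32), again described without a test for the same reason. Grid1 averaged 52.0 ± 7.99 CPM in fasted IP and 60.6 ± 3.94 CPM in fasted supernatant, and the 2 groups overlapped (log2 difference -0.28, SE 0.15, edgeR adjusted p = 0.0835). Blocking on the mouse gave a Grid1 difference of -0.29 (edgeR adjusted p = 0.0392), and it was called in 5 of 12 alternatives, always lower in IP. Chrna4 averaged 0.119 ± 0.183 CPM in fasted IP and 0.452 ± 0.477 CPM in fasted supernatant (log2 difference -1.73, SE 1.23, edgeR adjusted p = 0.199). Without fresh IP library B the Chrna4 difference was -4.73 (edgeR adjusted p = 0.0408), and its adjusted p ranged from 0.0408 to 0.770 over the alternatives. Whether IP minus supernatant differed between feeding states was not tested.

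The supernatant level as a share of the fresh IP level was set beside that of hepatocyte markers. These shares use the fasted and fed levels by which the genes were chosen, so they are a description and were not tested. In fasted libraries it was 379% for Chrna4, 117% for Grid1 and 11.0% for Ntrk2, against a median of 4.99% (2.39 to 26.7%) over 14 hepatocyte markers. In fed libraries it was 1.95% for Chrna4, 2.4% for Ntrk2 and 12.7% for Grid1, against a marker median of 3.38% (2.28 to 13.6%). Fed Ntrk2 was above 3 and below 11 of the 14 markers, fed Grid1 above 12 of them and fed Chrna4 below all 14. Fasted Chrna4 and Grid1 lay above all 14 markers, and fasted Ntrk2 above 12 of them. The fasted Chrna4 share divides by a fresh IP level of 1, 17 and 0 reads, its groups overlapped, and the log2 difference of IP minus supernatant behind it ran from -4.73 without IP library B to -0.40 over the alternatives.

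**Figure D2:**
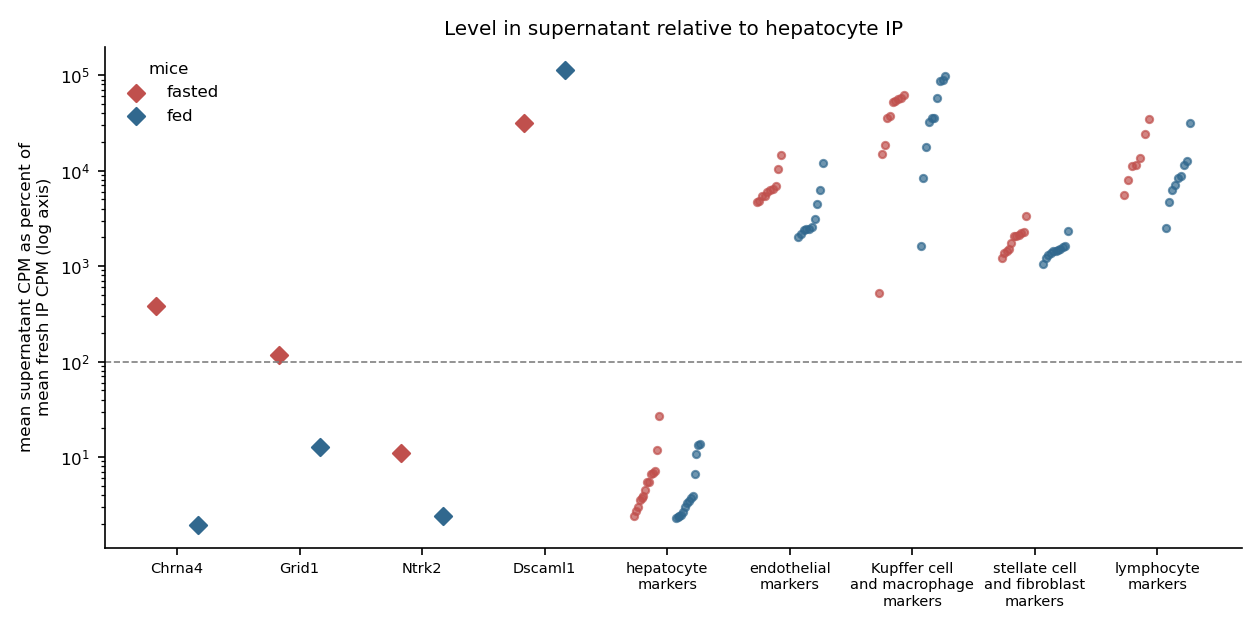
Mean supernatant CPM as a percent of mean fresh IP CPM (log axis) for the 4 genes (diamonds) and for single marker genes of 5 cell types (dots), fasted in red to the left of fed in blue; the dashed line is 100%. Fed Chrna4 (1.95%), Ntrk2 (2.4%) and Grid1 (12.7%) lie near hepatocyte markers, and fasted Chrna4 (379%) and Grid1 (117%) above 100%. Fasted Dscaml1 lies within the ranges of both Kupffer cell and macrophage markers and lymphocyte markers, and fed Dscaml1 above all markers shown. The Dscaml1 shares divide by fresh IP levels of 5 reads in each fasted library and of 5, 2 and 17 in fed libraries.

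Freezing the liver before nuclei were made left Grid1 and Ntrk2 with close mean levels. In fasted IP libraries Grid1 averaged 48.6 ± 4.71 CPM frozen and 52.0 ± 7.99 CPM fresh (SD, n = 3 each), and Ntrk2 8.97 ± 1.29 CPM frozen and 9.71 ± 0.339 CPM fresh. In fed IP libraries Grid1 averaged 309 ± 54.5 CPM frozen and 292 ± 28.5 CPM fresh, and Ntrk2 155 ± 44.9 CPM frozen and 152 ± 45.5 CPM fresh. The log2 differences, frozen minus fresh, were -0.08 (SE 0.16) and -0.10 (SE 0.12) in fasted and 0.13 (SE 0.16) and 0.08 (SE 0.35) in fed libraries, with edgeR adjusted p of 1.0 in each case. That test ignored that frozen and fresh libraries came from the same mice. With the mouse as a block, edgeR adjusted p for Grid1 and Ntrk2 was 0.290 and 0.472 in fasted and 0.559 and 0.661 in fed libraries. Fed Chrna4 averaged 52.2 ± 26.1 CPM frozen and 86.5 ± 64.2 CPM fresh, a log2 difference of -0.67 (SE 0.89, edgeR adjusted p = 1.0), and fasted Chrna4 did not pass the filter on low counts. Without fresh IP library B the fed Chrna4 difference turned to 0.05, and without fresh IP library C it was -1.11. These p-values do not show equal levels.

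For Dscaml1, frozen and fresh IP libraries did not overlap, and the frozen ones were higher. The same held for 7.22% of all genes in fasted and 7.28% in fed libraries, and 7.37% in fasted and 5.95% in fed libraries were lower in frozen IP without overlap. Fasted libraries averaged 0.472 ± 0.210 CPM frozen and 0.133 ± 0.0340 CPM fresh, a log2 difference of 1.86 (SE 0.38). Blocking on the mouse gave 1.82. Fed libraries averaged 1.74 ± 0.952 CPM frozen and 0.207 ± 0.190 CPM fresh, a log2 difference of 2.97 (SE 0.69), and DESeq2 gave 3.03. Frozen fed library B had the highest level (2.84 CPM) at the lowest depth of all libraries (13828945 counts). Leaving out single libraries, the fed difference ran from 2.47 without frozen library B to 4.06 without fresh library C. The gene passed the filter on low counts only through the frozen libraries, so these differences are described without a test. Over all genes the unblocked edgeR test called 0.495% of 12720 genes in fasted libraries and 0% of 12689 in fed ones. In fed libraries 909 genes had an unadjusted p under 0.05 by edgeR, and DESeq2 called 430. The block raised the calls to 2939 in fasted and 181 in fed libraries. Frozen IP held 1.13% of the supernatant level of Dscaml1 in fasted and 0.737% in fed libraries, and fresh IP 0.317% in fasted and 0.0878% in fed libraries. The median over 10 Kupffer cell and macrophage markers was 0.701% in fasted and 1.11% in fed libraries for frozen IP, and 0.230% in fasted and 0.281% in fed libraries for fresh IP. Over 10 endothelial markers it was 4.17% in fasted and 9.70% in fed libraries for frozen IP, and 1.65% in fasted and 3.98% in fed libraries for fresh IP. Over lymphocyte markers it was 1.55% in fasted and 2.39% in fed libraries for frozen IP, and 0.870% in fasted and 1.20% in fed libraries for fresh IP. All 3 lists were thus higher in frozen than in fresh IP, as Dscaml1 was. Between feeding states, the frozen share was higher in fasted than in fed libraries for Dscaml1 and lower for the 3 lists. The part of these markers in the Dscaml1 values was not tested.

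The genes next to the 4 on the chromosome gave a local comparison in fasting. Col20a1, next to Chrna4, averaged 18.3 ± 4.87 CPM in fasted and 21.7 ± 7.64 CPM in fed fresh IP libraries (log2 fold change -0.22, SE 0.41, edgeR adjusted p = 0.619). Wapal, next to Grid1, averaged 257 ± 17.8 CPM in fasted and 262 ± 32.8 CPM in fed fresh IP libraries (log2 fold change -0.01, edgeR adjusted p = 0.977). Cep164, next to Dscaml1, averaged 41.5 ± 1.84 CPM in fasted and 47.4 ± 5.76 CPM in fed supernatants (log2 fold change -0.18, SE 0.11, edgeR adjusted p = 0.351). None of these passed edgeR's test in any of the 3 preparations. Agtpbp1, next to Ntrk2, rose where Ntrk2 was lower, to 53.6 ± 14.5 CPM in fasted against 34.3 ± 3.47 CPM in fed fresh IP libraries (log2 fold change 0.66, SE 0.23, edgeR adjusted p = 0.0417). That call held in 6 of 11 alternatives, and the one in frozen IP (0.74, SE 0.21, edgeR adjusted p = 0.0235) in 8 of 11. On the other side of Grid1, Ntrk2 and Dscaml1, the genes 4930596D02Rik, Slc28a3 and Fxyd2 had means under 1 CPM in every group.

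Genes of the same pathways were taken as 6 lists of 87 symbols, of which 85 were in the table. In fresh IP 43 were tested, 5 rose and 2 fell in fasting, with 12.4% of all genes called higher and 12.6% lower; the median log2 fold change was -0.35 over the lists and 0.01 over all genes. In frozen IP 48 were tested, 4 rose and 8 fell, with 11% of all genes called higher and 11.6% lower, and a median of -0.34 against 0.01. In supernatant 44 were tested, 2 rose and 1 fell, against 3.38% and 2.84% of all genes, with a median of 0.07 against 0.00. Some called genes passed the filter on low counts only through the group where they are high. Nothing particular to the lists is read from these shares.

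Among the other nicotinic receptor subunits, 3 of 15 passed the filter on low counts in fresh IP. Some could pass it through the group where they are high, so their number of calls is not read against the 12.4% of all genes called higher and 12.6% called lower. Chrna2, the α2 subunit, averaged 5.18 ± 2.30 CPM in fasted against 0.365 ± 0.224 CPM in fed fresh IP (log2 fold change 3.75, SE 0.69). In frozen IP it rose to 4.23 ± 1.41 CPM in fasted against 0.619 ± 0.215 CPM in fed libraries (2.82, SE 0.43, edgeR adjusted p = 0.00327). The partner subunit Chrnb2 rose in fresh IP (log2 fold change 0.80, SE 0.09, edgeR adjusted p = 0.0308), a call that held in 4 of 11 alternatives; its span meets that of Adar in the count table. Chrne, the ε subunit of adult muscle, averaged 0.0358 ± 0.0180 CPM in fasted against 1.18 ± 0.239 CPM in fed fresh IP (-4.98, SE 0.24). In frozen IP it was lower in fasted libraries by 5.44 on the log2 scale. Chrne in both IP preparations and Chrna2 in fresh IP passed the filter only through the group where they are high. Those differences are described without a test. An opposite-strand gene, 4930544D05Rik, overlaps Chrne, so its reads are uncertain. The Chrna2 call in frozen IP held in 11 of 11 alternatives. In supernatant 3 subunits were tested and 0 were called by edgeR.

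Other cholinergic genes held 6 tested members in each preparation. None was called in fresh IP or supernatant. Chrm1, a muscarinic receptor, was lower in fasted frozen IP, at 0.192 CPM against 0.745 CPM in fed libraries (log2 fold change -1.89, SE 0.40). It passed the filter on low counts only through the fed libraries, so the difference is described without a test. Among ionotropic glutamate receptor subunits, the family of Grid1, 6 were tested in fresh IP and 8 in frozen IP. Grik5, a kainate receptor subunit, fell to 45.6 ± 3.03 CPM in fasted against 67.2 ± 4.96 CPM in fed fresh IP (-0.54, SE 0.08, edgeR adjusted p = 0.0119). Gria1, an AMPA receptor subunit, was lower in fasted frozen IP (-1.52, SE 0.21), at levels of 0.184 CPM in fasted and 0.512 CPM in fed libraries. It too passed the filter only through the fed libraries and is described without a test. Of the cerebellins, neurexins and GluD partners, Nrxn3 fell in frozen IP (-0.94, SE 0.31, edgeR adjusted p = 0.0312). It averaged 8.34 CPM in fasted and 16.1 CPM in fed frozen IP, far below supernatant at 253 CPM in fasted and 226 CPM in fed libraries. The part of nuclei other than hepatocyte nuclei in its fall was not tested. None of that list was called in fresh IP or supernatant.

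Among neurotrophins, their receptors and adaptors, the ligand gene Ntf3 rose in fresh IP (1.19, SE 0.42, edgeR adjusted p = 0.0436) and frozen IP (1.09, SE 0.17, edgeR adjusted p = 0.00860). Bdnf, the ligand of TrkB, fell in frozen IP to 2.92 ± 1.06 CPM in fasted against 5.90 ± 0.830 CPM in fed libraries (-1.01, SE 0.31, edgeR adjusted p = 0.0367), a call that held in 5 of 11 alternatives. Ngfr, the shared low-affinity receptor p75, was also lower in fasted frozen IP, at 0.0927 CPM against 0.753 CPM in fed libraries (-2.95, SE 0.38). It passed the filter on low counts only through the fed libraries, so this difference is described without a test. Ngfr is also in the stellate cell and fibroblast marker list, whose sum in frozen IP was 55.6 to 69.6 CPM in fasted and 84.9 to 127 CPM in fed libraries, and the part of those cells was not tested. In supernatant Sort1, the sorting receptor sortilin, rose (1.01, SE 0.23, edgeR adjusted p = 0.0273). Of neuronal adhesion genes of the immunoglobulin superfamily, Cadm1 rose in fresh IP (0.72, SE 0.20, edgeR adjusted p = 0.0253) and frozen IP (0.75, SE 0.17, edgeR adjusted p = 0.0207). Robo2, a receptor for Slit proteins, fell in frozen IP (-1.02, SE 0.29, edgeR adjusted p = 0.0269). Robo2 averaged 3.72 CPM in fasted and 7.58 CPM in fed frozen IP, against 92.1 CPM in fasted and 136 CPM in fed supernatant. The part of nuclei other than hepatocyte nuclei in that fall was not tested. In supernatant, where Dscaml1 was lower, Nrcam rose (1.32, SE 0.19, edgeR adjusted p = 0.0374) and Igsf9 fell (-0.61, SE 0.13, edgeR adjusted p = 0.0479). Of these calls, those of Ntf3 in fresh IP and of Nrxn3 in frozen IP held in 5 of 11 alternatives, those of Sort1 and Nrcam in 6 and that of Igsf9 in 3.

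**Figure D3:**
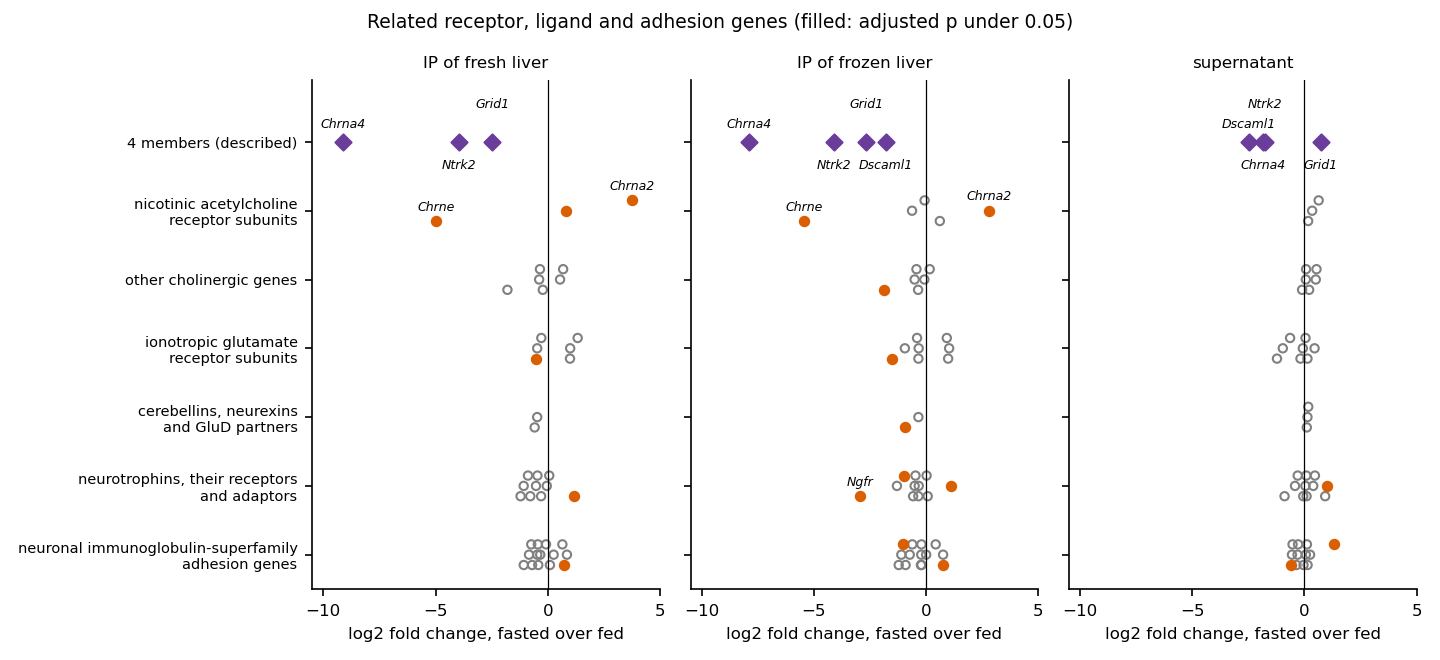
Log2 fold change, fasted over fed (x axis), of tested and reported genes of 6 related lists and of the 4 genes (purple diamonds, described without a test) in fresh IP, frozen IP and supernatant; filled orange circles passed edgeR's test at an adjusted p under 0.05 and open circles did not. Chrna2 lies to the right and Chrne to the left in both IP panels, while few supernatant genes leave 0. Filled Chrne, Chrm1, Gria1 and Ngfr, and Chrna2 in fresh IP, passed the filter on low counts only through the group where they are high.

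Between nuclei, 17 of 47 tested related genes were higher and 25 lower in fasted IP than in fasted supernatant, and 17 of 46 higher and 25 lower in fed IP. Over all genes 40.2% were higher and 40.4% lower in fasted IP, and 37.7% higher and 38.7% lower in fed IP. The list medians were -0.96 in fasted and -0.86 in fed libraries, against 0.02 and 0.01 over all genes. Among the called genes, some passed the filter on low counts only through the nuclei where they are high. Gria1, for example, averaged 0.0239 CPM in fasted IP and 0.589 CPM in fasted supernatant. Nothing particular to the lists is read from these counts, shares and medians. Dscam, the closest relative of Dscaml1, was likewise lower in IP, at 0.401 ± 0.122 CPM in fasted IP against 4.37 ± 1.44 CPM in fasted supernatant (log2 difference -3.46, SE 0.37, edgeR adjusted p = 7.08e-05). Bdnf was higher in IP, as Ntrk2 was, with a log2 difference of 2.51 (SE 0.48, edgeR adjusted p = 0.00108) in fasted libraries. In fed libraries the Bdnf difference was 4.35 (SE 1.02), at 5.46 CPM in IP and 0.253 CPM in supernatant. Ntrk3, the receptor TrkC, was lower in IP, by a log2 difference of -4.71 (SE 0.45) in fasted and -5.45 (SE 0.18) in fed libraries. It averaged 0.149 CPM in fasted and 0.121 CPM in fed IP, against 4.21 and 5.68 CPM in supernatant. Ntrk3 and fed Bdnf passed the filter on low counts only through the nuclei where they are high. Those differences are described without a test. With the mouse as a block 0 nicotinic subunits, in place of 1, were called lower in fasted IP.

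Genes with the most similar profile were found by the root-mean-square difference of log2 CPM (prior count 2, each gene centred on its mean) over 18 libraries, among 14442 genes. For Chrna4 they were Thrsp (1.39), A1bg (1.44), Pnpla3 (1.69), Ptgds (1.73) and Mvd (1.83), against a median of 3.83 over all genes. Thrsp, a nuclear protein known from lipogenesis, averaged 0.941 CPM in fasted and 71.0 CPM in fed fresh IP. For Grid1 they were Rdh11 (0.39), Mmab (0.42), Tm7sf2 (0.44), BC029214 (0.44) and Papss2 (0.45), against a median of 1.44. Papss2, which makes the sulfate donor PAPS, also had a higher mean in fasted supernatant (119 CPM) than in fed supernatant (68.9 CPM), as Grid1 did. The other 4 had slightly lower means in fasted than in fed supernatant, with log2 fold changes of -0.42 (Tm7sf2) to -0.09 (Rdh11). These supernatants were among the libraries used to pick the 5 genes, and the directions were not tested. For Ntrk2 they included Inmt (0.44), Serpina6 (0.54), Tnfaip8l3 (0.55) and Cyp2c70 (0.56), against a median of 2.69. Inmt, an indolethylamine N-methyltransferase, averaged 16.3 CPM in fasted and 246 CPM in fed fresh IP, beside Ntrk2 at 9.71 and 152 CPM. For Dscaml1 they were Gfra2 (0.64), Rasa4 (0.66), Bank1 (0.68), Gm1966 (0.70) and Abcg3 (0.72), against a median of 3.96. Gfra2, a receptor for neurturin, averaged 39.5 CPM in fasted and 126 CPM in fed supernatant. Among the 4 genes themselves, Grid1 and Ntrk2 were the most alike (1.65) and Ntrk2 and Dscaml1 the least (5.92).

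**Figure D4:**
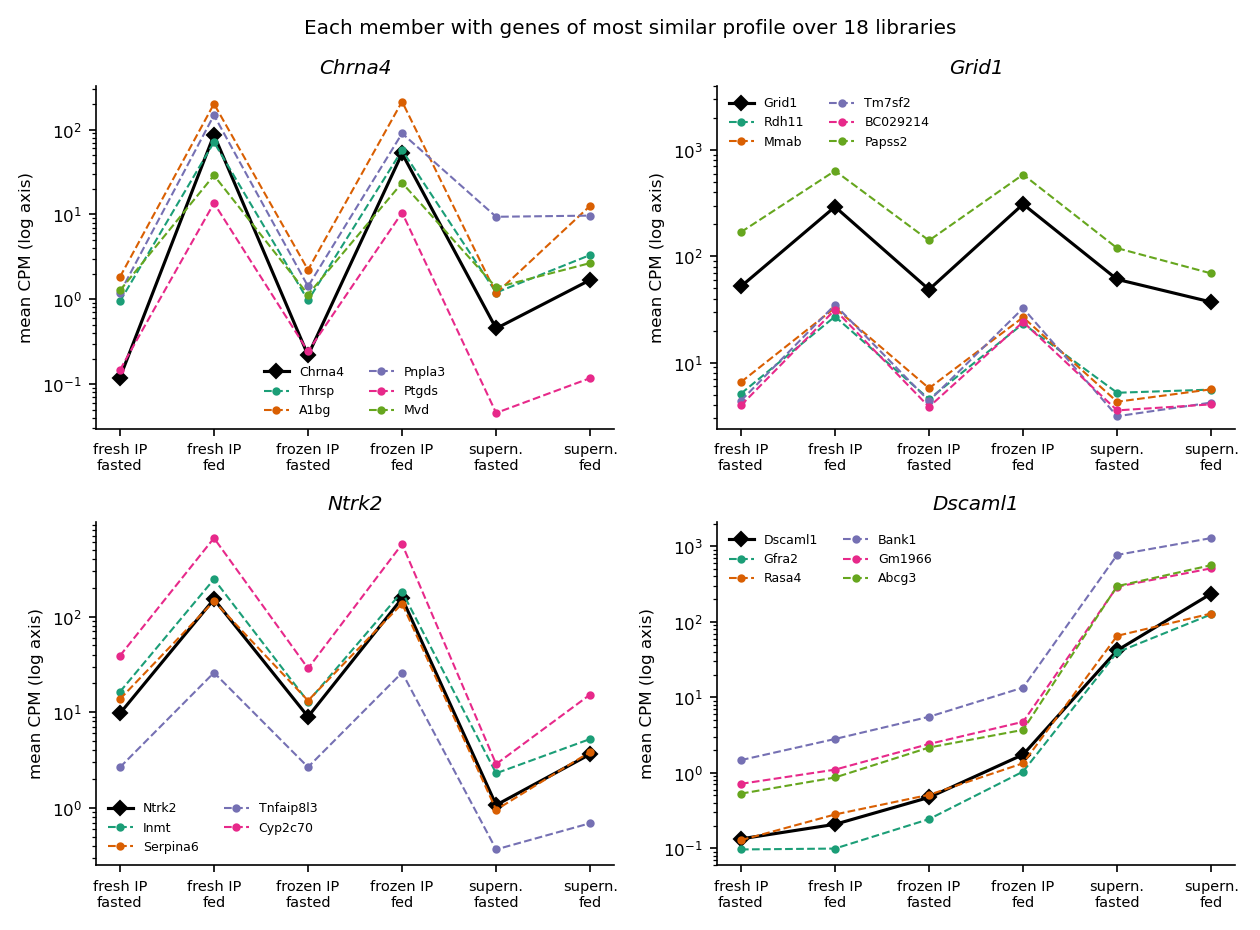
Mean CPM (log axis, n = 3 libraries) in the 6 groups for each of the 4 genes (black) and genes of most similar profile (dashed, coloured; 5 for Chrna4, Grid1 and Dscaml1, 4 for Ntrk2). The profiles of Chrna4, Grid1 and Ntrk2 peak in fed IP groups, and that of Dscaml1 in supernatants, where it averaged 41.9 CPM in fasted and 236 CPM in fed libraries.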

How the data were processed

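RNA-seq of liver nuclei gave 18 libraries in 6 groups. Per the labels' protocols, 50 to 100 ng of total RNA went into a stranded kit without poly-A selection, read as 50 bp pairs. STAR 2.4.2a, DESeq2 1.24.0 and mm10 stand in the submitters' processing notes. The authors deposited raw counts per gene for 20105 genes, whose length equals start to end in all 20105, so introns were counted. A further 6 columns match no sample and were not used. The authors' deposited table of comparisons holds log2 fold changes, p-values and normalized counts (signal, raw counts over a library factor). Its log2 fold changes are quoted where named, and its p-values and signal were not used.

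The counts were tested with edgeR 4.0.16 in R 4.3.3 (glmQLFit, glmQLFTest, TMM, filterByExpr by group, Benjamini-Hochberg adjusted p under 0.05), for each comparison on its own 2 groups, without a block. Each SE belongs to the gap between the groups' mean log2 CPM (prior count 2) and takes libraries as independent. The tests were checked on simulated counts. Counts of 0 allow up to 3 counts, which covers counting error only. Alternatives were DESeq2 1.42.0, RLE factors, no filter, all libraries in 1 fit, total counts, the block, and leaving out each library.

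No label holds the letters of the column names, and each column was tied to its group alone. Deviations from group means correlated at 0.15 to 0.78 between same-letter libraries and at -0.54 to 0.02 between different letters (11236 genes), so the letter served as the mouse block, since libraries of 1 mouse stand in several groups. No 2 libraries agreed within sampling noise.

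The 4 genes and all lists were chosen with earlier results of these data known. Named were the 4 genes, their nearest neighbours, at most 4 called genes of each list and comparison by size of change, and the 5 genes of nearest profile. Some genes that these rules name are not reported here. Exceptions, chosen after their values were seen, are the list genes given for IP minus supernatant.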

Additional observations from a re-analysis of the deposited data

Results flagged for a closer look

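Grid1 was picked out because its fasting response ran in opposite directions in 2 kinds of nuclei. All 3 fasted IP libraries lay below all 3 fed ones in fresh and in frozen liver, while all 3 fasted supernatants lay above all 3 fed ones. On the log2 scale of mean CPM, the fasted minus fed difference in fresh IP minus that in supernatant was -3.20, and with frozen IP it was -3.38. The difference between preparations was not tested, and both values share the same supernatants.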

How the results depend on the processing

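Fasting differences kept their sign under the 11 alternatives of each comparison for the genes that passed the filter, which leaves out Dscaml1 in fresh IP. Leaving out each library in turn, Chrna4 in fresh IP ran from -12.17 (without fasted library B) to -8.43 on the log2 scale. Calls in fresh IP, 3145 as reported, were 1429 without fasted A, 2050 without fed A and 1943 without fed B, with 2643 the highest count on leaving out a library, and 3758 with DESeq2 and 4204 with all libraries in 1 fit. Calls in frozen IP, 2918 as reported, were 1168, 1885 and 1810 without fasted A, B and C, with 2271 the highest count on leaving out a library, and 3649 with DESeq2 and 4366 with all libraries in 1 fit. Calls in supernatant, 866 as reported, were 1881 with DESeq2, 197, 541 and 473 without fasted A, B and C, and 316 and 327 without fed B and C, and 624 without fed A.

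For IP minus supernatant in fasted mice, Chrna4 ran from -4.73 (without IP library B) to -0.40. Grid1 was -0.37 with DESeq2 (adjusted p = 0.0256), -0.37 with RLE size factors (edgeR adjusted p = 0.0344), -0.61 with total counts (edgeR adjusted p = 0.00527), -0.29 with the mouse block (edgeR adjusted p = 0.0392), and -0.37 to -0.15 leaving out each library, with a call without IP library B (-0.37, edgeR adjusted p = 0.0370). Scaling by total counts was chosen after seeing the data. It moved the median of all genes to -0.31 in fasted and -0.36 in fed IP minus supernatant, and the share of calls that were higher to 38.0% and 36.4%, against 49.8% and 49.4% as reported. Relative to that shift the directions of all 4 fed differences were kept.

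For frozen minus fresh IP in fasted mice, calls numbered 63 as reported, 359 with DESeq2, 295 with all libraries in 1 fit, 2939 with the mouse block, and 0 to 1 leaving out any library. Dscaml1 with the block was 1.82. In fed mice, calls numbered 0 as reported, 430 with DESeq2, 479 with all libraries in 1 fit, 181 with the block and 0 to 58 leaving out each library (58 without fresh IP library C). Dscaml1 there was 3.03 with DESeq2 and 2.81 with all libraries in 1 fit. Apart from that of Grid1 above, the block changed no call of Chrna4, Grid1 or Ntrk2. The cause of each change was not tested. Counts of Chrna4 in fasted IP and of Dscaml1 in fresh IP, at most 17 a library, limit what can be measured there.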
